A study of Callithrix jacchus with 20 samples.

Results

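Marmoset primordial germ cell-like cells (cjPGCLCs) were compared here with the induced pluripotent stem cells (cjiPSCs) from which they were made, across all genes of the deposited count table. The comparison used 6 of the 20 RNA-seq libraries of the series: 2 libraries of cjiPSCs kept in cjPSCM, 2 of cjPGCLCs obtained through pre-ME + ActA and 2 of cjPGCLCs obtained through pre-ME - ActA. The libraries were chosen by their labels, and each cjPGCLC condition was given equal weight. All cells came from 1 line, DPZ_cjiPSC#2, reprogrammed from foetal marmoset fibroblasts with episomal plasmids that do not integrate, so the values describe 1 line. cjPSCM is a feeder-free expanded potential medium based on N2B27 that holds a GSK3 inhibitor, LIF, a SRC-family inhibitor and a tankyrase inhibitor, with TGFβ and FGF2 added. Pre-ME, the precursor of mesendoderm, was induced with the GSK3 inhibitor CHIR either with activin A (+ ActA) or without it (- ActA). It was then aggregated into embryoid bodies with BMP4, LIF, SCF and EGF, and the cells were sorted by flow cytometry at day 4. The methods describe cjPGCLCs as the INTα6/CXCR4 double-positive fraction and somatic cells as the double-negative fraction, while the sample labels name EpCAM beside INTα6 or CXCR4 and give the medium of the sorted cells' iPSCs as cjEPSCM. The cjiPSCs were not sorted, so the sort and the treatment cannot be told apart in this comparison. The question it answers is which pluripotency programmes cjPGCLCs kept, lost or gained relative to their starting cells.

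Pluripotent cells hold a core of transcription factors, POU5F1, NANOG and SOX2, around which other factors mark separate states. Naive cells resemble the preimplantation epiblast, formative cells the early postimplantation epiblast and primed cells the epiblast shortly before gastrulation. Primate germ cells arise from cells that have just left this epiblast or the amnion: BMP and WNT signals induce SOX17, TFAP2C and PRDM1, which set up the germ cell programme while POU5F1 and NANOG stay on. SOX2, in contrast, is switched off in primate germ cells.

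The 6 libraries held between 6708915 and 14256191 reads assigned to genes. The 2 cjiPSC libraries stood apart from each other more than any other replicate pair of the series. Over 14297 genes the SD of their log2 replicate difference was 0.896, against 0.272 to 0.570 in the other 9 conditions, and 689 genes differed by more than 2 on the log2 scale, against 31 and 46 in the cjPGCLC conditions. The share of reads outside annotated genes was 12.15% in cjiPSC replicate 1, 19.3% in cjiPSC replicate 2 and 19.7% to 23.2% in the cjPGCLC libraries. Where leaving out a cjiPSC library changed the class of a gene whose change is described here, its log2 fold change without that library is therefore given.

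The cjiPSC libraries also held transcripts of endothelial genes, a list of 25 genes that was chosen after their values were seen and was not tested. Their summed level was 67419 normalised counts in cjiPSC replicate 1 and 35689 in replicate 2, 9293 to 12784 in the 4 cjPGCLC libraries and 11735 to 13702 in the same line grown in TESR medium. Of the 25 genes, 20 were higher in both cjiPSC libraries than in every cjPGCLC library, beside 29.3% of all tested genes. In cjiPSC replicate 1, 23 were higher than in replicate 2, a share that was not counted over all genes. None was under 3 normalised counts in all 6 libraries. CDH5, the endothelial cadherin, measured 11857 and 3403 normalised counts in the cjiPSCs and 493 to 995 in the cjPGCLCs. The endothelial transcription factor ERG measured 1553 and 921 against 50.4 to 125, and the receptor TIE1 measured 4078 and 1906 against 267 to 458. The pluripotency-associated surface genes PECAM1 and THY1 are also expressed by endothelial or stromal cells, and the part of the endothelial transcripts in their change was not tested.

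The sorted cells were checked against markers of germ cell identity. SOX17, the factor that specifies primate germ cells, measured 765 and 258 normalised counts in the cjiPSCs, 913 and 1034 in cjPGCLCs from pre-ME + ActA and 2152 and 2096 in those from pre-ME - ActA, and 48.4 to 219 in the somatic cells. NANOS3, an RNA-binding protein of early germ cells, measured 8.48 and 1.48 in the cjiPSCs and 14.2 to 61.5 in the cjPGCLCs. TFAP2C and PRDM1 were present in the cjPGCLCs at 100.2 to 126 and 196 to 288, above the somatic cells, but the cjiPSCs already held 213 and 60.8 of TFAP2C and 1175 and 821 of PRDM1. All 4 markers therefore lay higher in every cjPGCLC library than in every somatic library, and of the 4 NANOS3 and SOX17 also rose from the cjiPSC level. The endoderm factors FOXA2 and HNF4A were higher in the same sorted cells too, at 83.9 to 518 and 131 to 835 against 0 to 4.61 and 1.55 to 9.22 in the somatic cells, and endoderm expresses SOX17 as well. Their part in the SOX17 level was not tested. In the cjiPSCs SOX17 was higher in replicate 1, as were 23 of the 25 endothelial genes. The part of the endothelial transcripts in its cjiPSC level was not tested. The log2 fold change of SOX17 was 2.51 without cjiPSC replicate 1 and 0.90 without replicate 2. The methods name CXCR4 and INTα6 (ITGA6) as the sort markers, while the labels name EpCAM beside 1 of them. Genes of the sort markers are therefore described only. CXCR4 measured 22.6 and 44.5 in the cjiPSCs and 1128 to 1317 in the cjPGCLCs, and ITGA6 3224 and 4632 and 1206 to 2277.

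Of 25102 genes in the table, 15797 passed the filter on low counts and were tested. In cjPGCLCs 1065 genes (6.74%) were higher and 527 (3.34%) lower at both thresholds, a Benjamini-Hochberg adjusted p under 0.05 in edgeR's quasi-likelihood test and a log2 fold change beyond 2. These genes are called gained and lost here. Without cjiPSC replicate 1 the higher genes numbered 796 and without replicate 2 they numbered 1837. By the adjusted p alone 4675 genes (29.6%) were higher and 4409 (27.9%) lower. All 4 cjPGCLC libraries lay above both cjiPSC libraries for 31.0% of tested genes and below both for 29.3%. A gene was called kept when the 95% confidence interval of its log2 fold change lay within -1 to 1, which held for 7022 genes (44.5%). Genes that passed only the adjusted p were called higher or lower, and the rest unresolved, or not detected where no library exceeded 3 counts. The median log2 fold change of all tested genes was 0.05. In bulk RNA a change in the number of cells that express a gene and a change in RNA per cell cannot be told apart.

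**Figure D1:**
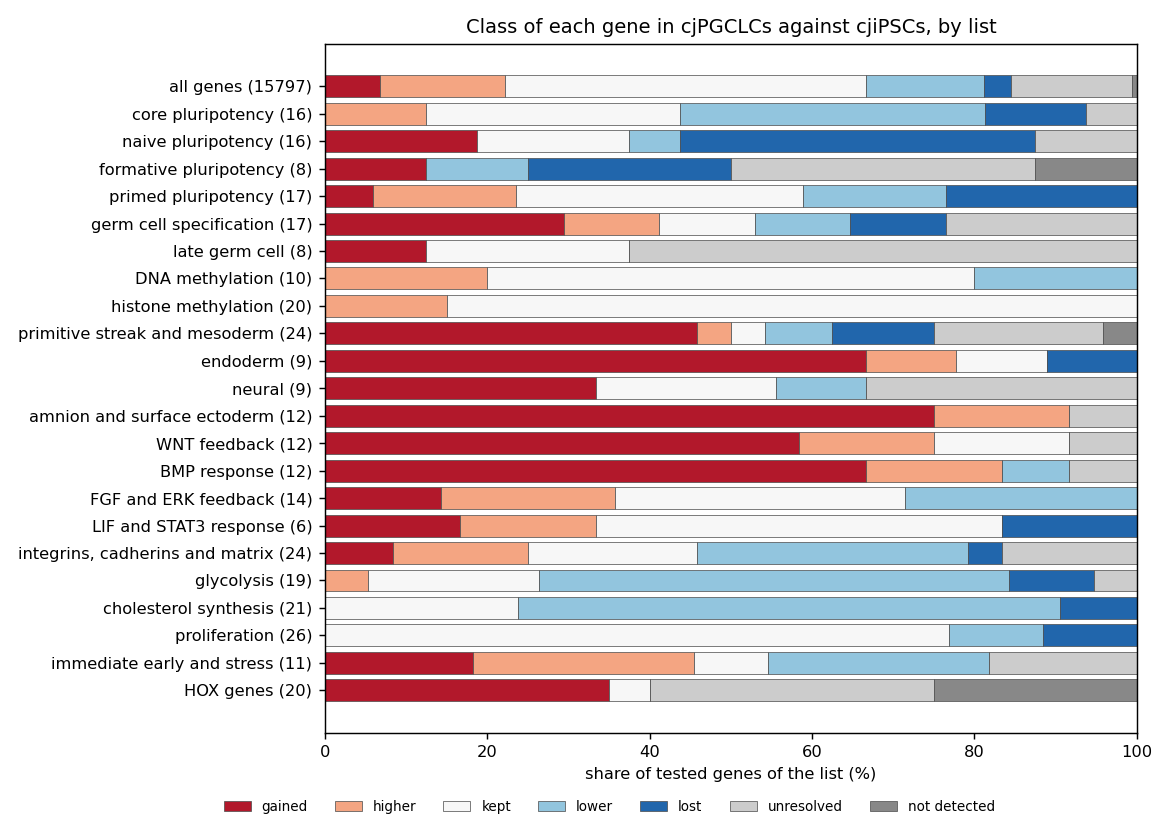
Share of the tested genes of each list that were gained, higher, kept, lower, lost, unresolved or not detected in cjPGCLCs against cjiPSCs (x axis, percent; tested genes per list in parentheses). Over all libraries the naive list had the most lost genes of the 4 pluripotency lists (7 of 16), beside 3.34% of all tested genes. Without cjiPSC replicate 1 it no longer had the most. Gained were 9 of 12 amnion, 6 of 9 endoderm and 8 of 12 BMP response genes, beside 6.74% of all tested genes.

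Pluripotency genes fell more often than they rose. The 4 pluripotency lists held 68 genes, of which 57 were tested: 15 were lost, 11 lower, 14 kept, 5 higher, 5 gained, 6 unresolved and 1 not detected. The lost share was 26.3%, beside 3.34% of all tested genes, and the kept share was 24.6%, beside 44.5%. The median log2 fold change was -0.65 over the 57 genes, and the list medians depended on both cjiPSC libraries. Leaving out cjiPSC replicate 2 moved the median from -0.82 to 0.14 for the core list and from -1.04 to -0.65 for the naive list. It moved the median from -0.60 to 0.29 for the formative list and from -0.28 to 0.04 for the primed list. Without cjiPSC replicate 1 the medians were -0.91, -0.68, -1.10 and -0.52 for the core, naive, formative and primed lists. Of the 15 lost genes, 8 were lost whichever of the 6 libraries was left out: NANOG, UTF1, GDF3, NR5A2, PRDM14, NLRP7, ETV4 and THY1. The gains that held in the same way were KLF4, ESRRB and SALL3, and the kept genes that did so were LIN28B, TERF1, TBX3 and CD24.

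**Figure D2:**
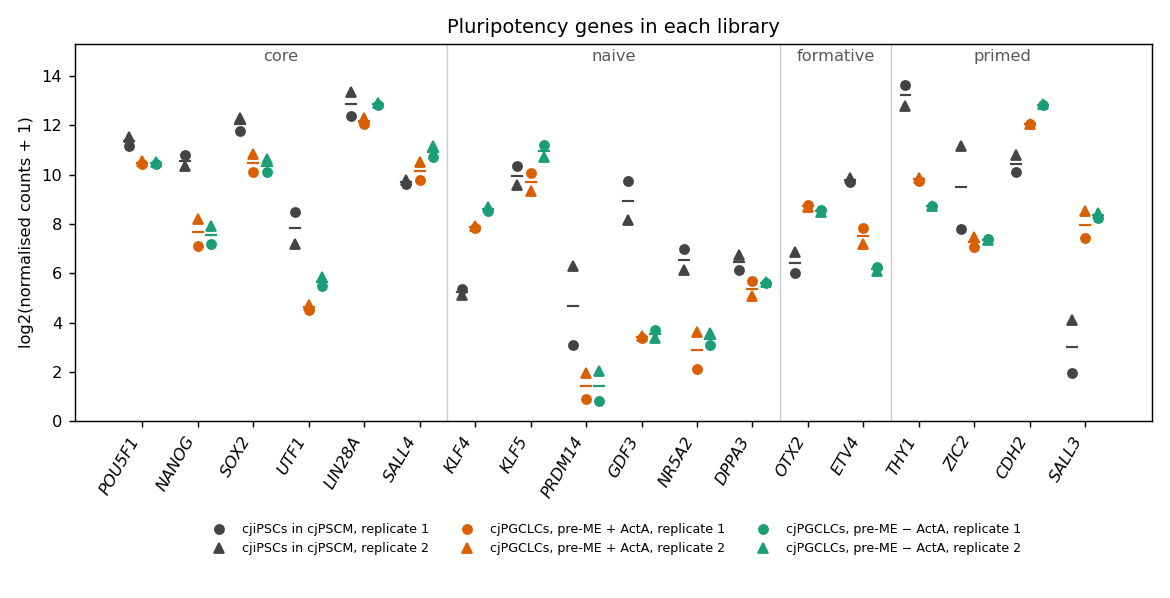
Level of 18 pluripotency genes in each cjiPSC and cjPGCLC library (y axis, log2 of normalised counts plus 1; points, libraries by replicate; short lines, mean of the 2 libraries). NANOG, GDF3, NR5A2 and THY1 lay lower in every cjPGCLC library than in either cjiPSC library, POU5F1 fell by 0.86 on the log2 scale, and the 2 cjiPSC libraries stood apart for ZIC2 and PRDM14.

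The 3 central factors all fell. POU5F1 (OCT4) measured 2323 and 2926 normalised counts in the cjiPSCs, 1380.2 and 1490.1 in cjPGCLCs from pre-ME + ActA and 1381 and 1458 in those from pre-ME - ActA. The groups did not overlap, and the log2 fold change was -0.86 (SE 0.14, adjusted p = 8.71e-05), so that POU5F1 was lower but not lost. NANOG measured 1760.5 and 1300.0 in the cjiPSCs, 136 and 297 with ActA and 146 and 238 without. Every cjPGCLC library lay below both cjiPSC libraries. It was lost, with a log2 fold change of -2.92 (SE 0.23, adjusted p = 3.26e-08). SOX2 measured 3491 and 5071 in the cjiPSCs, 1094 and 1838 with ActA and 1100.4 and 1571 without. It was lower by the test, at -1.59 (SE 0.21, adjusted p = 8.26e-06).

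The somatic cells sorted from the same embryoid bodies placed these changes. POU5F1 measured 1184 to 1287 in the 4 somatic libraries, and the difference between cjPGCLCs and somatic cells was 0.23 (SE 0.12, adjusted p = 0.248). NANOG measured 92.2 to 203 there, with a difference of 0.61 (SE 0.23, adjusted p = 0.0814). Neither difference passed the adjusted p. SOX2 measured 2214 to 3245 in the somatic cells and was lower in the cjPGCLCs, by a log2 difference of -0.89 (SE 0.18, adjusted p = 0.00231). Of all tested genes, 377 (2.39%) were higher and 43 (0.272%) lower in cjPGCLCs than in somatic cells at both thresholds, and 9.79% and 5.11% by the adjusted p alone.

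Among the other core genes, UTF1, a chromatin-bound factor of pluripotent and germ cells, measured 357 and 144 in the cjiPSCs and 22.0 to 56.7 in the cjPGCLCs and was lost at -2.88 (SE 0.35, adjusted p = 4.33e-06). The cjPGCLCs nevertheless stood above the somatic cells, which held 0 to 7.08 (3.08 on the log2 scale). ZFP42 (REX1) fell from 272 and 377 to 105 to 203, and DPPA4 from 2017 and 1181 to 868 to 949. Without cjiPSC replicate 1 the change of DPPA4 was -0.33 and it fell within the kept range. DPPA2, a partner of DPPA4, was scarce throughout, with 25.4 and 19.3 against 1.42 to 18.9. Its change of -1.39 ranged from -2.21 to -1.14 with 1 library left out at a time, and was unresolved at -1.15 without cjiPSC replicate 1.

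The 5 core genes that were kept over all libraries were LIN28A, LIN28B, TERF1, PHC1 and PODXL, of which LIN28B and TERF1 were kept whichever library was left out. LIN28A, which blocks the maturation of let-7 miRNAs, measured 5314 and 10593 in the cjiPSCs, 4211 and 5057 with ActA and 7282 and 7763 without, and its interval of -0.79 to -0.01 put it in the kept class. Without cjiPSC replicate 1 it was lower, at -0.81. LIN28B measured 1288 and 1294 and 1628 to 1742, an interval of 0.10 to 0.72. TERF1, a telomere protein, differed by 0.14 (SE 0.11), and PHC1, a polycomb subunit, by -0.66 (SE 0.11), within the kept range, though PHC1 was lower at -0.78 without cjiPSC replicate 1. PODXL, the carrier of the TRA-1-60 epitope, was kept over the pooled conditions at 0.45 (SE 0.22), but it was higher without ActA, at 6692 and 7154, than with it, at 2416 and 4196. Leaving out cjiPSC replicate 2 gave 0.91 for PODXL, which was then higher.

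SALL4, a zinc finger factor of pluripotent and germ cells, was higher: it measured 784 and 888 in the cjiPSCs, 882 and 1442 with ActA and 1664 and 2276 without, a log2 fold change of 0.88 (SE 0.17, adjusted p = 0.000377). TRIM71, a ubiquitin ligase, rose from 1883 and 2971 to 2989 to 5656, at 0.81 (SE 0.16). SALL4 was kept at 0.67 without cjPGCLC + ActA replicate 2, and TRIM71 at 0.53 without cjiPSC replicate 1. For TERT and ZSCAN10 the 2 cjiPSC libraries decided the sign. TERT measured 23.5 and 208 in the cjiPSCs and 24.5 to 64.6 in the cjPGCLCs, and its fold change was -2.22 without cjiPSC replicate 1 and 0.87 without replicate 2. ZSCAN10 measured 13.2 and 301 and 42.7 to 94.9, with -2.21 and 2.25.

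The naive list had 7 lost genes of 16 tested, 3 gained, 3 kept, 1 lower and 2 unresolved. Among all tested genes 3.34% were lost, 6.74% gained and 44.5% kept. The largest fall was that of GDF3, a TGFβ-family ligand, which measured 855 and 283 in the cjiPSCs and 9.30 to 12.2 in the cjPGCLCs and changed by a log2 value of -5.76 (SE 0.41, adjusted p = 1.30e-08). NR5A2, a nuclear receptor that binds the POU5F1 promoter, measured 127 and 68.2 and 3.38 to 11.4, at -3.66 (SE 0.35, adjusted p = 2.98e-07). PRDM14, a repressor of differentiation that mouse germ cells require, measured 7.54 and 77.1 in the cjiPSCs. Its 4 cjPGCLC libraries held at most 3 counts each, so the mean cjiPSC level was at least 12-fold higher, a value set mainly by cjiPSC replicate 2. NLRP7, an oocyte and preimplantation gene, fell from 147 and 188 to 27.0 to 56.2, at -2.16 (SE 0.25).

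PECAM1 measured 12988 and 7096 in the cjiPSCs, 1942 and 1861 with ActA and 2622 and 2597 without. It was lost at -2.16 (SE 0.17, adjusted p = 3.63e-08), and at -1.64 without cjiPSC replicate 1 it was lower but no longer past the fold threshold. KHDC3L and SUSD2, a naive surface marker, were likewise lost over all libraries, at -2.46 and -2.14, and unresolved without cjiPSC replicate 1, at -1.40 and -0.68. ANPEP, an aminopeptidase, fell from 1860.3 and 1269 to 569 to 835, at -1.16 (SE 0.15).

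KLF4 went the other way. This Krüppel-like reprogramming factor measured 39.6 and 34.1 in the cjiPSCs, 229.9 and 243 in cjPGCLCs with ActA and 366 and 409.8 without, and 29.8 to 58.4 in the somatic cells. It was gained at 3.04 (SE 0.29, adjusted p = 2.76e-07) and exceeded the somatic cells by 2.83 (SE 0.22, adjusted p = 2.14e-07). ESRRB, an orphan nuclear receptor, had no reads in the cjiPSCs and 4.23 to 17.1 normalised counts in the cjPGCLCs, at least 3-fold higher, with 14.2 to 20.8 in the somatic cells. ELF3, an epithelial ETS factor, measured 2.83 and 23.7 and 24.2 to 128. It was gained at 2.31, and without cjiPSC replicate 1 its change was 1.33 and unresolved.

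KLF5, TBX3 and KLF2 were kept over all libraries, but only TBX3 of the 3 whichever library was left out. KLF5 was higher, at 0.82, without cjiPSC replicate 1. KLF2 was unresolved at 0.38 without cjiPSC replicate 1 and lower at -0.65 without replicate 2. KLF5 measured 1290.5 and 768 in the cjiPSCs, 653 to 2332 in the cjPGCLCs and 120.4 to 157 in the somatic cells, so that it was kept against the starting cells and 3.35 higher (log2) than in the somatic cells. TBX3, a T-box factor of naive cells, measured 431 and 353, 229 to 644 and 86.8 to 107, with a difference from somatic cells of 2.06 (SE 0.19, adjusted p = 1.27e-06). It was kept over the pooled conditions, but was lower with ActA than without. DPPA3 (STELLA), which protects the maternal genome from demethylation, measured 69.7 and 105 in the cjiPSCs and 32.7 to 49.9 in the cjPGCLCs. Its log2 fold change of -0.93 (SE 0.40, adjusted p = 0.0595) did not pass the test, and was lower at -1.19 without cjiPSC replicate 1. The somatic cells held 0 to 5.31, a difference of 4.79 (SE 0.65, adjusted p = 7.05e-05). In all, 9 of the 16 naive genes were higher in cjPGCLCs than in somatic cells by the adjusted p and none lower, beside 9.79% and 5.11% of all tested genes. KLF17, TFCP2L1, DPPA5, DNMT3L, FGF4, OOEP, VENTX and NLRP2 had too few counts to test.

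The formative list was small, with 8 of 10 genes tested. OTX2, a homeobox factor of the postimplantation epiblast, was gained: it measured 63.1 and 116 in the cjiPSCs, 430.2 and 407 with ActA, 374 and 359 without and 23.1 to 85.0 in the somatic cells. The log2 fold change was 2.19 (SE 0.43, adjusted p = 0.000391), and without cjiPSC replicate 1 it was 1.79, under the fold threshold. ETV4, an ETS factor downstream of FGF, was lost: it measured 825 and 919, then 227 and 146 with ActA and 74.4 and 67.8 without, at -2.88 (SE 0.20, adjusted p = 9.94e-09). ETV5 fell from 457 and 671 to 212 to 329. POU3F1 measured 6.59 and 99.3 in the cjiPSCs and was lost over all libraries, but its change was 0.61 without cjiPSC replicate 2. SALL2 was unresolved at -0.55 (SE 0.23), lower at -1.06 without cjiPSC replicate 1 and kept at 0.18 without replicate 2. FGF5 and NODAL stayed at or near the count floor in all 6 libraries, and FOXD3 and CER1 had too few counts to test.

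Of 17 primed genes 4 were lost, 3 lower, 6 kept, 3 higher and 1 gained. Among all tested genes 3.34% were lost, 44.5% kept and 6.74% gained. By the adjusted p 8 of the 17 were lower and 5 higher, beside 27.9% and 29.6% of all tested genes. The rises were thus near the share of all genes. THY1 (CD90), a surface glycoprotein of primed cells, measured 12832 and 7124 in the cjiPSCs, 856 and 933 with ActA and 424 and 424 without. It was lost at -4.00 (SE 0.20, adjusted p = 2.49e-10), and was higher with ActA than without. SALL3, a zinc finger factor, measured 2.83 and 16.3 in the cjiPSCs and 172 to 364 in the cjPGCLCs, a gain of 5.16 (SE 0.44, adjusted p = 1.08e-07). It stood higher still in the somatic cells, at 558 to 851. CDH2 (N-cadherin) rose from 1087 and 1773 to 4211 and 4287 with ActA and 7189 and 7445 without, a change of 1.99 that passed the fold threshold, at 2.35, without cjiPSC replicate 2. SOX11 rose from 1128 and 2203 to 3503 to 4031, and FAT3, an atypical cadherin, from 622 and 636 to 893 to 1392.

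ZIC2 and SOX3, transcription factors of primed and neural cells, turned on 1 cjiPSC library. ZIC2 measured 224 and 2281 in the cjiPSCs and 132 to 176 in the cjPGCLCs. It was lost at -2.94 over all libraries and at -3.82 without cjiPSC replicate 1, but unresolved at -0.52 without replicate 2. SOX3 (10.4 and 57.8) gave -2.92 and -0.50 under the same exclusions. SFRP2, a secreted WNT inhibitor, was kept against the cjiPSCs at -0.28 (SE 0.21) and lay -2.25 below the somatic cells (log2), which held 12467 to 20775. SFRP2 was unresolved, at -0.52, without cjiPSC replicate 1. CD24, SALL1, FZD7, DUSP6 and PTPRZ1 were kept over all libraries, with log2 fold changes between -0.65 and 0.42, but only CD24 of them whichever library was left out. FZD7 and SALL1 were higher, at 1.04 and 0.87, and PTPRZ1 was unresolved, at 0.53, without cjiPSC replicate 2. DUSP6 was lower, at -0.71, without cjiPSC replicate 1.

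**Figure D3:**
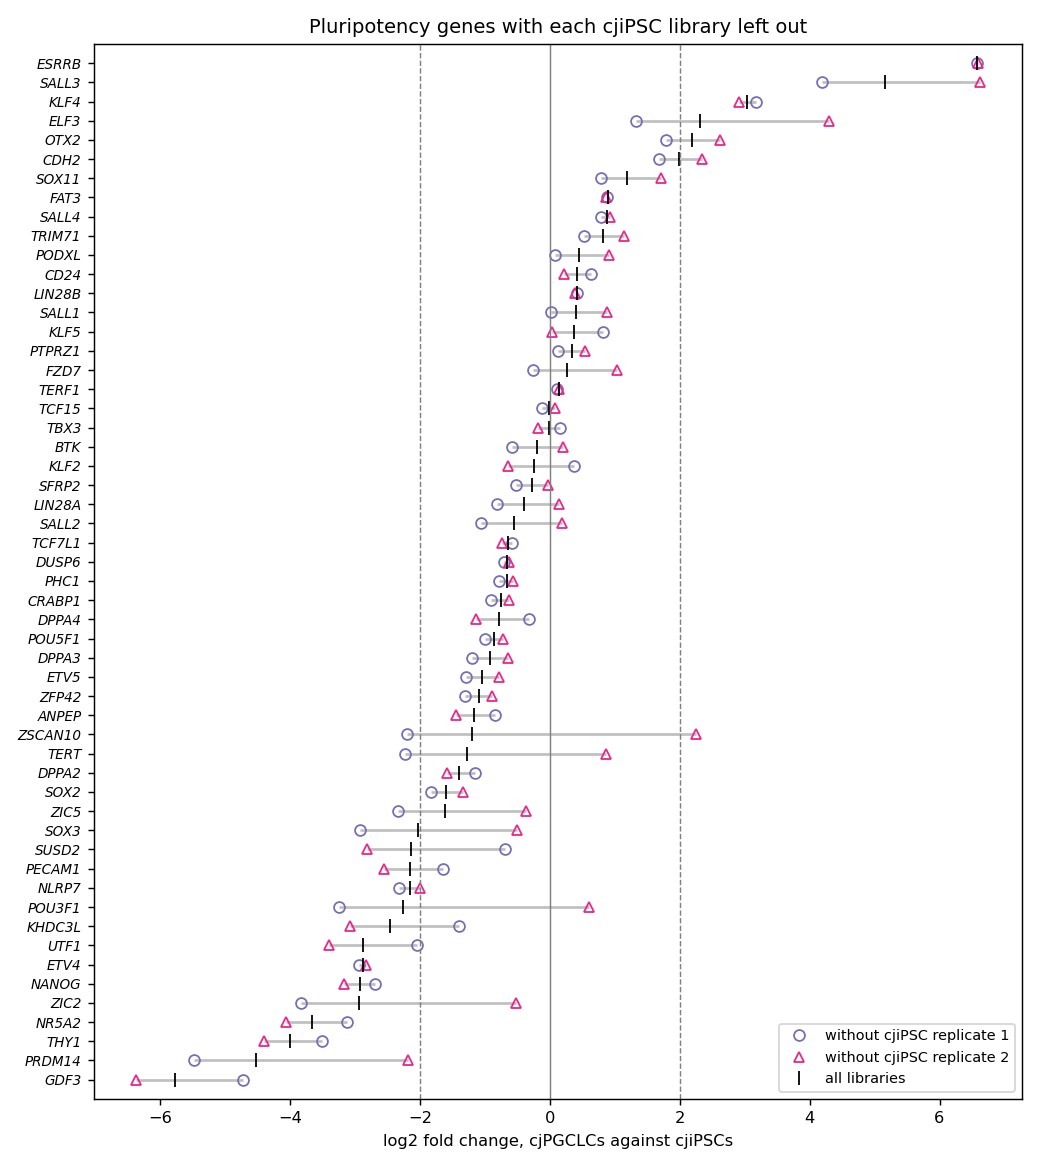
Log2 fold change of 54 tested genes of the 4 pluripotency lists in cjPGCLCs against cjiPSCs with all libraries (bar), without cjiPSC replicate 1 (circle) and without cjiPSC replicate 2 (triangle); dashed lines mark 2 and -2. ZSCAN10 and TERT were among the genes whose sign changed between the exclusions, while GDF3, NR5A2, THY1, NANOG, ETV4 and UTF1 stayed below -2 and SALL3, KLF4 and ESRRB above 2 under both.

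In all, 11 of the 57 genes differed by more than 4-fold between the 2 cjiPSC libraries: SUSD2 was higher in replicate 1, and 10 genes in replicate 2. Among the latter were ZIC2, ZIC5, SOX3, SALL3, POU3F1, PRDM14, ELF3, TERT and ZSCAN10. Leaving out 1 cjPGCLC library took SUSD2 (-1.78), POU3F1 (-1.93), SOX3 (-1.91) and ELF3 (1.87) under the fold threshold. Of the 15 lost genes, 12 were also lost without cjiPSC replicate 1 and 11 without replicate 2.

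The germ cell specification list showed gains beside losses, with 5 of 17 genes gained, 2 higher, 2 kept, 2 lower, 2 lost and 4 unresolved, beside 6.74% of all tested genes gained and 3.34% lost. SOX17 was higher at 1.49 (SE 0.39, adjusted p = 0.00423), and without cjiPSC replicate 1 it was gained at 2.51. NANOS3 was gained at 2.83 (SE 0.60, adjusted p = 0.000832). TFAP2A, an AP2 factor of amnion and germ cell progenitors, measured 12.2 and 43.0 in the cjiPSCs, 116 and 329.9 with ActA and 854 and 958 without, at 4.15 (SE 0.45, adjusted p = 1.14e-06). GATA2 rose from 948 and 652 to 2622 and 3454 with ActA and 5937 and 5798 without, and GATA3 from 495 and 295 to 3116 to 3995. Both GATA factors respond to BMP, and only GATA2 of the pair also exceeded the somatic cells, by 1.79 (SE 0.15, adjusted p = 6.35e-07).

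MSX1, a homeobox target of BMP, had the widest change of the list, from 18.8 and 11.9 to 1808 to 2912, a log2 value of 7.25 (SE 0.33, adjusted p = 1.14e-10). The somatic cells held more, 4244 to 5486. PRDM1 (BLIMP1), the repressor of the somatic programme in germ cells, was lost against the cjiPSCs at -2.02 (SE 0.18, adjusted p = 1.45e-07), and at -1.72 without cjiPSC replicate 1 it was lower but short of the fold threshold. Against the somatic cells it was higher by 1.44 (SE 0.18, adjusted p = 3.30e-05). TFAP2C (AP2γ) was unresolved against the cjiPSCs, at -0.29 (SE 0.36, adjusted p = 0.502). Its cjiPSC libraries gave 213 and 60.8, and the exclusions gave 0.92 and -0.93. It too was higher than in the somatic cells, by 2.17 (SE 0.37, adjusted p = 0.000553).

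KIT, the SCF receptor of migrating germ cells, was kept, at 795 and 614 and 817 to 1141, and higher, at 0.65, without cjiPSC replicate 1. CD38, a surface marker of human germ cells, measured 45.2 and 23.7 in the cjiPSCs and at most 3 counts in each cjPGCLC library, so that the cjiPSC mean was at least 9.87-fold higher. PDPN fell from 175 and 326 to 52.6 to 93.4 and TEAD4 from 1104 and 765 to 203 to 293. Both passed the fold threshold with 1 cjiPSC library left out, PDPN at -2.24 without replicate 1 and TEAD4 at -2.15 without replicate 2. Of 21 late germ cell genes 13 had too few counts to test, 5 were unresolved and 2, TDRKH and SYCP1, were kept. SYCP1 was unresolved, at -0.48, without cjiPSC replicate 1. DDX4 had no read in any of the 6 libraries, and DAZL measured 0 and 1.48 in the cjiPSCs and 0 to 1.58 in the cjPGCLCs. PIWIL2 was the single gain over all libraries, at 2.53 and, without cjiPSC replicate 1, at 1.57, under the fold threshold. It rose from 1.88 and 11.9 to 33.0 to 36.5, and the somatic cells held 36.9 to 74.3.

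**Figure D4:**
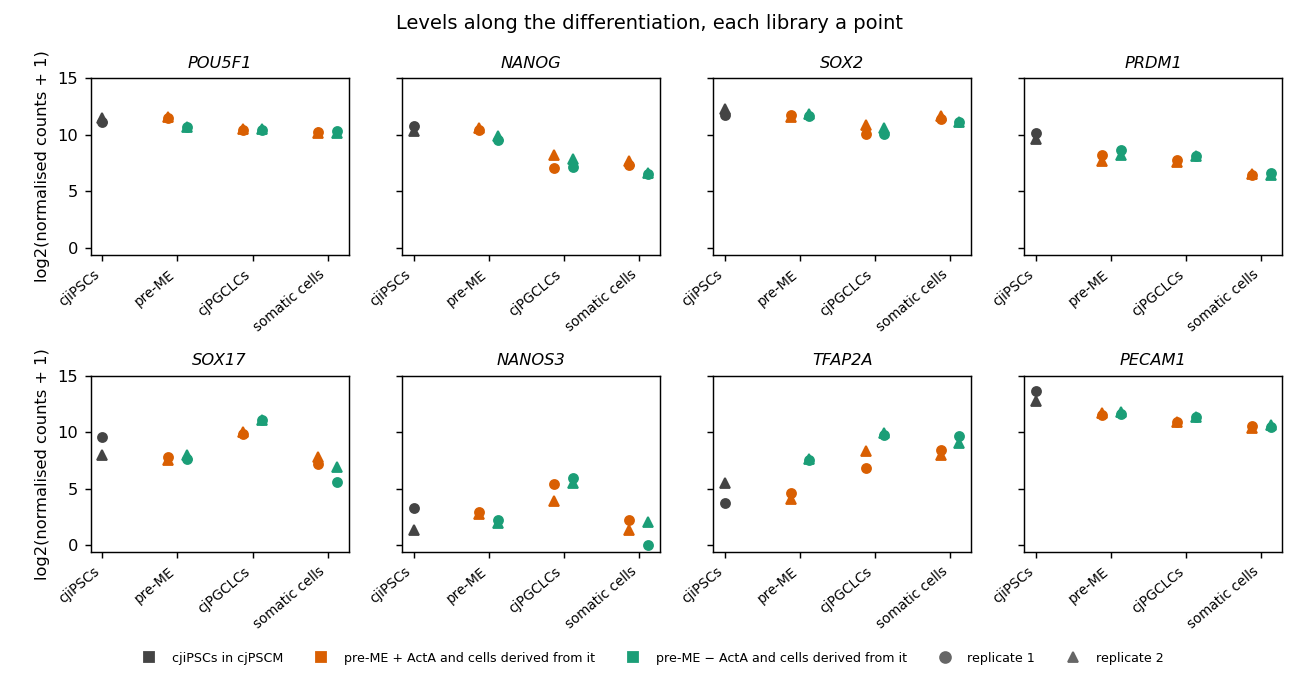
Level of 8 genes along the differentiation from cjiPSCs in cjPSCM through pre-ME to sorted cjPGCLCs and somatic cells (y axis, log2 of normalised counts plus 1; each point is 1 library). NANOG and SOX2 were lower in cjPGCLCs than in pre-ME, SOX17 and NANOS3 peaked in the cjPGCLCs, and PRDM1 and PECAM1 were highest in the cjiPSCs.

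The pre-ME libraries placed the losses in time, as levels only. NANOG measured 1406 to 1581 in pre-ME + ActA, within the cjiPSC range, and 758 to 988 in pre-ME - ActA, between the cjiPSC and cjPGCLC levels. SOX2 measured 3121 to 3378 and 3329 to 3624, PRDM1 209 to 295 and 290.3 to 408, and SOX17 187 to 219 and 199 to 255. PRDM1 thus stood near its cjPGCLC level already in pre-ME, whereas NANOG and SOX2 were still far above their cjPGCLC levels.

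Genes of differentiated lineages were gained together with the germ cell genes. The endoderm list had 6 gained genes of 9 tested, beside 6.74% of all tested genes, with a median log2 fold change of 5.14. FOXA2, a pioneer factor of endoderm, measured 2.83 and 5.93 in the cjiPSCs, 192 and 83.9 with ActA, 518 and 356 without and 0 to 4.61 in the somatic cells. It was gained at 5.91 (SE 0.56, adjusted p = 4.56e-07) and exceeded the somatic cells by 9.06 (SE 0.63, adjusted p = 1.15e-07). HNF4A, a nuclear receptor of endoderm and liver, rose from 13.2 and 10.4 to 418 and 131 with ActA and 835 and 446 without, and the somatic cells held 1.55 to 9.22. APOA1, an apolipoprotein, rose from 105 and 129 to 324 to 1773, against 122 to 168 in the somatic cells. GATA6 was kept, and HHEX, a factor of endoderm and endothelium, was lost at -2.44 (SE 0.23); the part of the endothelial transcripts of the cjiPSCs in this was not tested. Of the 9 endoderm genes 6 were higher in cjPGCLCs than in somatic cells at both thresholds, beside 2.39% of all tested genes. AFP, TTR and FOXA1, which mark mature or foregut endoderm, had too few counts to test.

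The primitive streak and mesoderm list had 11 gained genes of 24 and 3 lost, beside 6.74% and 3.34% of all tested genes, and a median of 2.12. HAND1 rose from 14.1 and 10.4 to 2135 to 4155, PDGFRA, a receptor of mesoderm and primitive endoderm, from 44.3 and 77.1 to 3659.8 to 7781, and TWIST1 from 32.0 and 20.8 to 1459 to 2394. Their log2 fold changes were 7.93 (SE 0.34), 6.59 (SE 0.34) and 6.26 (SE 0.34). The somatic cells held 3497 to 4845 of HAND1 and 3481 to 8217 of PDGFRA, and neither difference passed the adjusted p. SNAI2 rose from 129 and 153 to 1098 to 1438, GATA4 of the endoderm list from 30.1 and 13.3 to 1025 to 3322 and ISL1 of the amnion list from 183 and 99.3 to 1329 to 1608. TBXT (brachyury) was not detected in the 6 libraries, and EOMES measured 4.71 and 1.48 in the cjiPSCs and 1.58 to 6.08 in the cjPGCLCs. FGF8, a streak ligand, was lost from 26.4 and 26.7 to 0 to 4.23. FOXC2 was lost at -5.21, and at -3.49 and -5.95 without each cjiPSC library. LHX1, lost at -3.15, was unresolved at -0.60 without cjiPSC replicate 2. KDR, the VEGF receptor of mesoderm and endothelium, was lower, from 4981 and 3558 to 996 to 1219.9, and the part of the endothelial transcripts of the cjiPSCs in its change was not tested. KDR was lost, at -2.15, without cjiPSC replicate 2.

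The amnion and surface ectoderm list had 9 gained genes of 12, beside 6.74% of all tested genes, 2 higher and none lower, with a median of 3.97. VTCN1, an amnion surface protein, had at most 3 counts in each cjiPSC library, 80.3 and 132 normalised counts with ActA and 642 and 426 without, at least 89.6-fold higher. GABRP, another amnion gene, had 27.0 to 69.1, at least 12.6-fold higher. TFAP2B, at 1.30, turned on 1 cjiPSC library, with 3.14 without replicate 1 and an unresolved 0.59 without replicate 2. It rose from 119 and 20.8 to 148 to 219, while the somatic cells held 4.47 to 20.8. DLX5, MSX2 and POSTN were gained at 5.51, 5.25 and 5.10. TP63, a factor of stratified epithelium, had too few counts to test. The neural list gave 3 gained genes of 9, beside 6.74% of all tested genes: PAX3 at 31.3 to 95.3, ZIC1 at 7.88 to 24.5 and DLK1 at 50.4 to 171 in the cjPGCLCs. Without cjiPSC replicate 1 ZIC1 and DLK1 were unresolved, at 2.21 and 1.17, and DLK1 was at 1.79 and 1.89 without replicate 1 of each cjPGCLC condition. PAX3 and DLK1 were lower than in the somatic cells by the adjusted p. Its neuroectoderm markers PAX6 and SOX1 stayed near the count floor.

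Of 37 HOX genes in the table, 20 were tested, 7 were gained, beside 6.74% of all tested genes, and none was lost. HOXA13, a posterior gene, rose from 1.88 and 11.9 to 1067 and 663 with ActA and 317 and 241 without, at 6.39 (SE 0.46, adjusted p = 1.71e-08). HOXA9 had at most 3 counts in each cjiPSC library, 66.8 and 59.7 normalised counts with ActA and 5.32 and 3.15 without. HOXA10 likewise had 52.4 and 45.5 with ActA and 5.32 and 4.73 without. Of the tested HOX genes, 9 were lower in cjPGCLCs than in somatic cells by the adjusted p and none higher, beside 5.11% and 9.79% of all tested genes. HOXD3 measured 7.59 to 18.5 in cjPGCLCs and 55.7 to 67.3 in somatic cells.

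**Figure D5:**
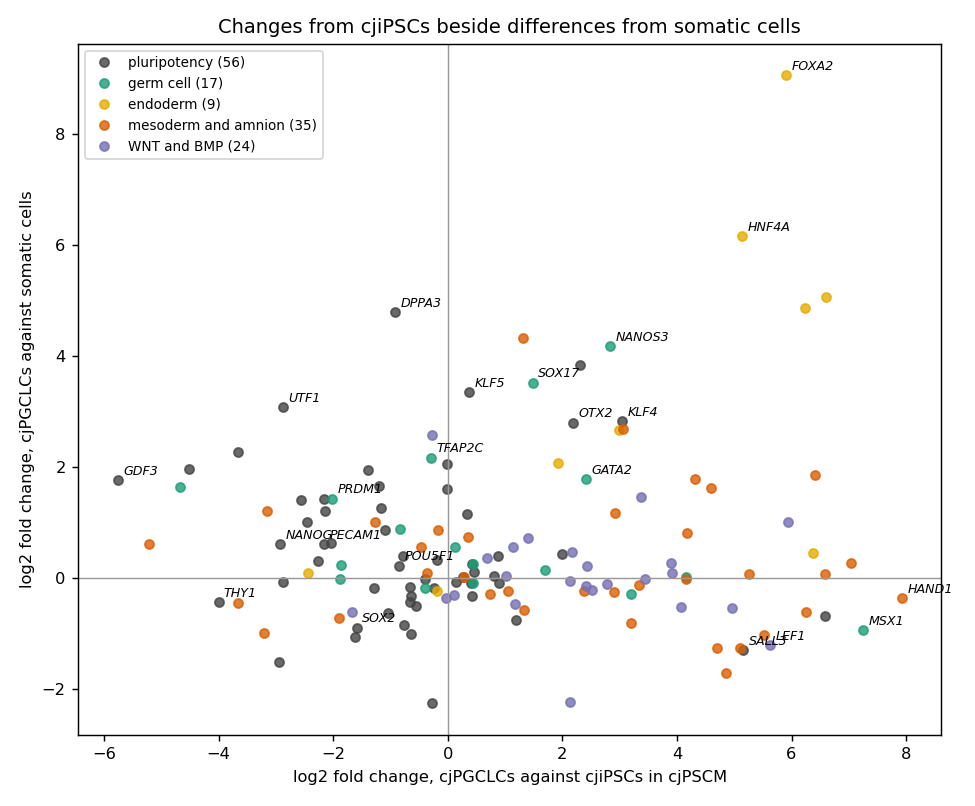
Log2 fold change of cjPGCLCs against cjiPSCs (x axis) beside the difference from somatic cells (y axis) for genes of the pluripotency, germ cell, endoderm, mesoderm and amnion, and WNT and BMP lists; both axes use the same cjPGCLC libraries. Endoderm genes such as FOXA2 and HNF4A lay high on both axes, HAND1, MSX1 and LEF1 were high against cjiPSCs only, and DPPA3, UTF1 and KLF5 stood above the somatic cells without having risen from the cjiPSC level.

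Signalling targets changed as well. The WNT feedback list had 7 gained genes of 12, beside 6.74% of all tested genes, and none was lower by the adjusted p, beside 27.9%. LEF1, a nuclear effector of WNT, rose from 22.6 and 71.2 to 1790.3 to 2987, at 5.62 (SE 0.33, adjusted p = 1.99e-09), and NOTUM, a secreted WNT deacylase, from 11.3 and 10.4 to 519 to 859.7, at 5.94 (SE 0.25, adjusted p = 6.12e-11). DKK1, a WNT antagonist, rose from 182 and 141 to 897 and 1450.3 with ActA and 2021 and 2736 without. AXIN2, a feedback inhibitor of WNT, was kept at 672 and 808 and 627 to 753. The cjiPSCs in cjPSCM were themselves held in a GSK3 inhibitor and a tankyrase inhibitor.

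The BMP response list had 8 gained genes of 12, beside the same 6.74%. SMAD6 and SMAD7, inhibitory SMADs, rose from 344 and 239 to 3752 to 4786 and from 365 and 209 to 1798 to 2095. SMAD9 rose from 170.5 and 114 to 1461 to 1612, and NOG (noggin), a BMP antagonist, from 44.3 and 54.8 to 1314 to 1691, at 4.96 (SE 0.31, adjusted p = 4.29e-09). ID2 was gained at 2.42 (SE 0.19), while ID1 and ID3 were higher, at 1.02 (SE 0.22) and 0.68 (SE 0.18). ID3 was kept, at 0.34, without cjiPSC replicate 2. BMP4 itself was lower, from 1029 and 448 to 191 to 264, and lost, at -2.16, without cjiPSC replicate 2. Against the somatic cells 1 of the 12 genes was higher in cjPGCLCs by the adjusted p and 1 lower, beside 9.79% and 5.11% of all tested genes. The median difference was -0.06.

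FGF and ERK feedback genes split. SPRY1, SPRY4, IER3 and PHLDA1 were lower, at -1.64, -1.22, -1.14 and -1.43, and both SPRY genes were lower without ActA than with it. DUSP5 and EGR1 were higher, at 0.82 and 1.43. The rise of EGR1 was 3.21 without cjiPSC replicate 1 and 0.68 without replicate 2. FGF2 had 0.942 and 7.41 in the cjiPSCs, 55.8 and 104 with ActA and 254 and 271 without, a gain of 5.32 (SE 0.54, adjusted p = 6.87e-07). FGFR3 was gained at 2.05 (SE 0.26), and FGFR2 was kept. FGFR3 fell under the fold threshold, to 1.53 without cjiPSC replicate 1 and to 1.97 without replicate 1 of either cjPGCLC condition. Without any 1 of the other libraries it stayed past the threshold, at 2.10 to 2.82. In the LIF and STAT3 list the receptor LIFR was gained, from 246 and 305 to 969.7 to 2436, and its partner IL6ST was higher, at 1.48 (SE 0.17). STAT3, JAK1 and SOCS3 were kept, SOCS3 being unresolved at 0.56 without cjiPSC replicate 1, and BCL3 was lost from 432 and 368 to 41.2 to 70.6.

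Over the pooled cjPGCLC conditions none of the chromatin regulators of the histone and DNA methylation lists was gained or lost. In cjPGCLCs from pre-ME - ActA alone, 1 of 10 DNA methylation genes was gained against the cjiPSCs. Of 20 histone methylation genes 17 were kept, beside 44.5% of all tested genes, and 3 higher. Fewer were kept without cjiPSC replicate 2. EZH2, the polycomb methyltransferase, measured 1477 and 1470.5 in the cjiPSCs and 1529.8 to 1691 in the cjPGCLCs, an interval of -0.07 to 0.31. KDM6A, an H3K27 demethylase, was higher, from 199.7 and 229.8 to 419 to 521, and KDM3A from 408 and 415 to 650.1 to 690.3. Of 10 DNA methylation genes 6 were kept, beside the same 44.5%, 2 higher and 2 lower. The maintenance genes DNMT1 and UHRF1 were kept, at -0.63 (SE 0.15) and -0.34 (SE 0.17), as was DNMT3A at 0.06 (SE 0.12). DNMT1 and UHRF1 were lower, at -0.80 and -0.68, without cjiPSC replicate 1. DNMT3B, the de novo methyltransferase of the epiblast, was lower, from 909 and 2819 to 691 to 926, at -1.20 (SE 0.26, adjusted p = 0.000862); without cjiPSC replicate 2 it was kept, at -0.21. TET1 and TET2, which oxidise methylcytosine, rose from 340.0 and 442 to 1031 to 1814 and from 272 and 216 to 531 to 769, at 1.81 (SE 0.15, adjusted p = 7.01e-08) and 1.36 (SE 0.16, adjusted p = 3.29e-06).

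Most genes of 2 metabolic lists, cholesterol synthesis and glycolysis, were lower by the adjusted p, 20 of 21 and 14 of 19 beside 27.9% of all tested genes. Of 21 cholesterol synthesis genes 2 were lost, 14 lower and 5 kept, beside 3.34% lost and 44.5% kept of all tested genes. Their median log2 fold change was -1.19. MVD, the mevalonate diphosphate decarboxylase, fell from 3944 and 4935 to 947 to 1108, at -2.10 (SE 0.15, adjusted p = 1.79e-08), and FDPS, the farnesyl diphosphate synthase, from 3806 and 3592 to 1086 to 1309. Without cjiPSC replicate 2 MVD was at -1.97, short of the fold threshold. SREBF2, the transcription factor of the pathway, was kept at -0.32 (SE 0.12). Of 19 glycolysis genes 2 were lost, 11 lower, 4 kept, 1 higher and 1 unresolved, with a median of -1.14, beside 3.34% of all tested genes lost. Without cjiPSC replicate 1 the lost glycolysis genes numbered 0 and the kept 8, and without replicate 2 the lost numbered 4. GAPDH fell from 31582 and 25364 to 8993 to 9999.6, and PFKP from 7579 and 4439.6 to 1078 to 1769.8, the latter at -2.13 (SE 0.18, adjusted p = 8.85e-08) and, without cjiPSC replicate 1, at -1.68. ALDOA was 17539 and 9063 in the cjiPSCs, higher in replicate 1, and 3189.8 to 4002 in the cjPGCLCs, and it was lost, at -2.28, without replicate 2. The median difference of cjPGCLCs from somatic cells was -0.03 for glycolysis and -0.30 for cholesterol synthesis. Of the 21 cholesterol genes 10 were lower in cjPGCLCs than in somatic cells by the adjusted p, beside 5.11% of all tested genes.

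Of 26 proliferation genes 20 were kept, beside 44.5% of all tested genes, and 13 without cjiPSC replicate 2. By the adjusted p 14 of the 26 were lower and 2 higher, beside 27.9% and 29.6% of all tested genes, with a median log2 fold change of -0.39. CCNB1 differed by -0.15 (SE 0.11), CDK1 by 0.19 (SE 0.13) and CCNA2 by -0.05 (SE 0.10). MKI67 measured 2745 and 7146 in the cjiPSCs and 4529 to 5065 in the cjPGCLCs, and its change was -0.53 without cjiPSC replicate 1 and 0.81, a rise, without replicate 2. The 3 lost genes of the 26, beside 3.34% of all tested genes, were CDKN1A, CDKN2A and MYC. CDKN1A (p21), an inhibitor of cyclin-dependent kinases, measured 3691 and 1992 in the cjiPSCs, 169.9 and 136 with ActA and 92.7 and 78.8 without, and was lost at -4.60 (SE 0.26, adjusted p = 1.13e-09). CDKN2A, another inhibitor, fell from 2215 and 1205 to 224 to 296, at -2.71 (SE 0.19, adjusted p = 1.19e-08). MYC was lost from 1667 and 1284 to 247 to 469, at -2.10 (SE 0.23, adjusted p = 1.76e-06), and at -1.88 without cjiPSC replicate 1 it was lower. MYCN was kept at 0.21 (SE 0.28), and higher at 1.06 without cjiPSC replicate 2. CCND1 was lower, and lower still without ActA (1959 and 1964) than with it (5869.7 and 4762).

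Adhesion and matrix genes divided. The collagen IV chains COL4A1 and COL4A2 of the basement membrane fell from 47304 and 34048 to 13557 to 15494 and from 40453 and 30972 to 14759 to 19076, and the fibronectin receptor chain ITGA5 from 12908 and 7419 to 2867 to 4435. CDH5 was lost at -3.43 (SE 0.33, adjusted p = 3.40e-07), and at -2.25 and -4.09 without each cjiPSC library; like the other endothelial genes it was higher in cjiPSC replicate 1, and their part in its change was not tested. In the other direction COL3A1 rose from 42.4 and 40.0 to 6119 and 2498 with ActA and 1234 and 651 without, and CDH3 (P-cadherin) from 42.4 and 170.5 to 908 to 3736. FN1 (fibronectin) rose from 18634 and 16712 to 114174 and 82760.3 with ActA and 47484 and 36855 without, at 1.89 (SE 0.22, adjusted p = 2.39e-06). CDH1 (E-cadherin) was scarce in all 6 libraries, 2.83 and 4.45 and 3.04 to 7.11. Of 11 immediate early and stress genes, 2 were gained, beside 6.74% of all tested genes, and 3 each were higher and lower. Both gained genes, FOSB and ATF3, lay at the fold threshold (2.00 and 2.03). The gained genes numbered 0 without cjiPSC replicate 2, without replicate 1 of either cjPGCLC condition and by glmTreat, a test against the minimum fold, and 1 with a replicate block. FOS measured 164 and 40.0 in the cjiPSCs and 240.3 to 592 in the cjPGCLCs, ATF3 49.9 and 19.3 and 96.1 to 195, and JUNB 1462 and 974 and 567 to 879.8. The change of FOS was 3.31 without cjiPSC replicate 1 and 1.24 without replicate 2, ATF3 was at 1.55 without replicate 2, and JUNB was kept, at -0.36, without replicate 1.

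The largest changes of all genes were named by a rule on size. Among the 12 genes with the largest rise, SCIN, an actin-severing protein, measured 2.83 and 72.6 in the cjiPSCs, 4217 and 3321 with ActA and 12087 and 11210.1 without, and 49.2 to 104 in the somatic cells. It was gained at 7.70 (SE 0.68, adjusted p = 1.34e-07). GSDMC, a gasdermin, had no read in the cjiPSCs, 28.4 to 255 normalised counts in the cjPGCLCs, at least 29.7-fold higher, and 0 to 2.98 in the somatic cells. HABP2, a secreted protease, TH, tyrosine hydroxylase, and SLC38A8, an amino acid transporter, followed the same pattern, with 42.7 to 380.5, 24.2 to 402 and 35.5 to 339 in the cjPGCLCs and at most 3 counts in each cjiPSC library. RSPO3, a WNT agonist, rose from 5.65 and 5.93 to 475 to 2956, at 7.96 (SE 0.79, adjusted p = 5.28e-07). TBX20, MYH6, UNC45B, SP6 and INSRR completed the set with HAND1. TBX20, a cardiac factor, rose from 11.3 and 5.93 to 1070.1 to 3760.2, and the somatic cells held 3067 to 3646.

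Among the 12 genes with the largest fall, MMP12, MMP3 and MMP13 are matrix metalloproteinases. MMP12 measured 246 and 405 in the cjiPSCs and 0 to 5.92 in the cjPGCLCs, at -7.60 (SE 0.49, adjusted p = 4.87e-09). MMP3 measured 149 and 255, at least 57.5-fold more than the cjPGCLCs, which had at most 3 counts each. APLN (apelin), a ligand of endothelial and early mesodermal cells, fell from 2846 and 1256 to 5.32 to 18.6, at -7.32 (SE 0.40, adjusted p = 7.89e-10), with the same limit as CDH5. FOSL1, an AP-1 subunit, fell from 420.1 and 271 to 6.84 to 16.9, and ANKRD1, a YAP target, from 12293 and 7407 to 210.4 to 704. SRPX2, PRELP, ABCG1, HTR3A and NPTX2 completed the set with GDF3. NPTX2 measured 555 and 31.1 and rested on cjiPSC replicate 1, with -4.90 over all libraries and -1.63 without it.

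The most abundant lost genes included HMGA1, an architectural chromatin protein of pluripotent and proliferating cells, which fell from 23731 and 19974 to 4179 to 4933, at -2.24 (SE 0.19, adjusted p = 1.03e-07). YBX3, an RNA-binding protein, fell from 12002 and 8443 to 1913 to 2009, CAVIN1, a coat protein of caveolae, from 18752 and 11635 to 1766 to 2721, and LGALS1 (galectin) from 13419 and 9620.4 to 1568 to 2923. SLC25A6, CYP1B1 and ADAM12 fell past both thresholds with all libraries, and without cjiPSC replicate 1 they were at -1.53, -1.88 and -1.94. The most abundant gained genes included SFRP1, a secreted WNT inhibitor, from 1186 and 5819.6 to 17998 to 40697, at 2.98 (SE 0.42, adjusted p = 1.71e-05), and PEG3, a paternally expressed imprinted gene, from 2312 and 5382 to 21801 to 29508, at 2.75 (SE 0.24, adjusted p = 1.37e-07). KCTD12 rose from 171 and 130.4 to 14600.4 and 10086 with ActA and 4271 and 2444 without. UNC5B, PRTG, FBN2, A2M, TNFRSF19 and TMEM123 were also of this set, with log2 fold changes between 2.08 and 2.96. PRTG was at 1.83 without cjiPSC replicate 1, and FBN2 and TNFRSF19 were at 1.83 and 1.74 without replicate 2, all under the fold threshold.

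The cjPGCLC conditions were also set side by side. Against the same 2 cjiPSC libraries, cjPGCLCs from pre-ME + ActA had 1057 genes (6.69%) gained and 445 (2.82%) lost, and those from pre-ME - ActA had 1077 (6.82%) and 625 (3.96%). In the 4 pluripotency lists the losses with and without ActA were 3 and 2 of 16 core, 6 and 5 of 16 naive, 2 and 2 of 8 formative, and 4 and 3 of 17 primed genes. NANOG changed by -2.84 with ActA and -3.01 without on the log2 scale, and KLF4 changed by 2.68 and 3.40. The direct test between the conditions gave 217 genes (1.37%) higher and 183 (1.16%) lower with ActA at an adjusted p under 0.05. That test rested on the spread shared over all 20 libraries: edgeR on the 6 libraries alone called 0 genes, with 1275 at an unadjusted p under 0.05, and leaving out 1 library at a time gave 41 to 521 and 29 to 458.

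Of the core pluripotency genes, 4 of 16 were lower with ActA: SALL4 at -0.77 (SE 0.19, adjusted p = 0.0393), TRIM71 at -0.87 (SE 0.18, adjusted p = 0.0141), ZFP42 at -0.88 (SE 0.20, adjusted p = 0.0258) and PODXL at -1.07 (SE 0.25, adjusted p = 0.0304). POU5F1 gave 0.01 (SE 0.17, adjusted p = 1), NANOG 0.17 (SE 0.29, adjusted p = 0.935) and SOX2 0.13 (SE 0.25, adjusted p = 0.944), none of which passed. TBX3 was the single naive gene, lower with ActA at -1.03 (SE 0.24, adjusted p = 0.0269). ETV4 was higher with ActA at 1.40 (SE 0.27, adjusted p = 0.00923). Among germ cell genes TFAP2A and GATA2 were lower with ActA, at -2.06 (SE 0.37, adjusted p = 0.00652) and -0.95 (SE 0.21, adjusted p = 0.0212), and the endoderm gene FOXA2 likewise, at -1.65 (SE 0.38, adjusted p = 0.0295).

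The genes with the smallest adjusted p between the conditions included NGFR, FGFR4, PARP14, ST8SIA4 and POU3F2. NGFR, the low-affinity neurotrophin receptor, measured 944 and 682 with ActA, 79.7 and 78.8 without and 13.2 and 20.8 in the cjiPSCs, a difference of 3.36 (SE 0.31, adjusted p = 4.74e-05). FGFR4 went the other way, with 603 and 610.0 with ActA, 1452 and 1232 without and 1415 and 1211 in the cjiPSCs, and its level overlapped that of the cjiPSCs in the cells made without ActA and lay below it in those made with ActA. PARP14, an ADP-ribosyltransferase, measured 298 and 316 with ActA and 845 and 819.5 without. ST8SIA4, a polysialyltransferase, measured 478 and 307 with ActA and 93.4 and 96.1 without. POU3F2, a neural POU factor, measured 669 and 408 with ActA and 134 and 117 without. The posterior genes HOXA9, HOXA10, HOXA11 and HOXA13 were all higher with ActA.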

How the data were processed

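RNA was extracted from cjiPSCs and sorted day 4 cells and poly(A) RNA was sequenced as paired ends. Per the labels and the methods, the authors checked reads with FastQC 0.11.8, aligned them to calJac4 with STAR 2.7.0a and counted them per gene with HTSeq-count 0.11; the annotation release and strand setting are not given in the sources used here, so overlapping and antisense genes may share reads. The deposited count table holds raw counts. A second table holds the same counts divided by DESeq2 size factors, a signal that the authors deposited and that is printed here as normalised counts, per library and not per length. Levels are therefore compared between libraries, not between genes.

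The raw counts were tested with edgeR 4.0.16 (quasi-likelihood F-test, TMM, filterByExpr, R 4.3.3) in 1 fit of all 20 libraries with 1 coefficient per condition and 10 residual degrees of freedom. Summary lines for unassigned reads were left out. The cjPGCLC conditions were averaged with equal weight against cjiPSCs in cjPSCM, and Benjamini-Hochberg adjustment ran over all 15797 genes tested. Genes past both thresholds were called gained or lost, and kept where the 95% interval lay within -1 to 1 (log2). The class of genes with at most 3 counts in all 6 libraries, called not detected, was added after the values were seen. Where 1 group held at most 3 counts in every library, the fold is given as a bound against 3 counts per library. Genes of 23 lists may be named, with the 12 largest changes each way among called genes with at least 100 normalised counts, the 10 most abundant called each way and the 6 with the smallest adjusted p between the cjPGCLC conditions. Endothelial genes were added after the values were seen and were not tested. The members and lists were chosen with earlier results of these data known. The study calls the replicates biologically independent. What separates them is not given in the sources used here, so p-values measure the spread between these samples, all of 1 line. That spread was shared over all 20 libraries. The cjiPSC pair differed more (SD of the log2 replicate difference 0.896) than every other condition (0.272 to 0.570). P-values and intervals against the cjiPSCs may therefore understate their spread. The code was tested on simulated data. DESeq2 1.42.0, other scaling, no filter, the 6 libraries alone, a minimum-fold test (glmTreat), a replicate block and leaving out each library were tried as alternatives. Some genes of these lists and rules are not reported here by name. Genes are named by symbol, and no coordinates or sequences are given, since the reference tables used here are of another assembly.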

Additional observations from a re-analysis of the deposited data

Results flagged for a closer look

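The change from cjiPSCs differed between cjPGCLCs made with and without ActA, by the test of the difference itself, for 9 named genes with a log2 difference beyond 2 (edgeR, adjusted over all genes tested). With ActA, HOXA9 was higher by 3.76 (adjusted p = 0.000383), HOXA11 by 3.53 (adjusted p = 0.0482), HOXA10 by 3.24 (adjusted p = 0.00385), NGFR by 3.36 (adjusted p = 4.74e-05), COL3A1 by 2.18 (adjusted p = 0.0177), POU3F2 by 2.09 (adjusted p = 0.000229) and ST8SIA4 by 2.06 (adjusted p = 0.00022). TFAP2A differed by -2.06 (adjusted p = 0.00652) and VTCN1 by -2.36 (adjusted p = 0.0126), both lower with ActA. In the cells made without ActA, HOXA9 and HOXA10 lay near the count floor, so the sizes of their differences are uncertain. Against the cjiPSCs the log2 fold change of HOXA11 ranged from 1.29 to 6.03 with 1 library left out at a time. For each of the 9 genes the 2 libraries of 1 condition lay on 1 side of the 2 libraries of the other. The genes were picked by their difference in these same libraries, so this adds no support. None of these genes passed in edgeR on the 6 libraries alone, where 0 genes were called.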

How the results depend on the processing

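Of the 1592 genes past both thresholds, 1029 were still called without cjiPSC replicate 1, 1448 without cjiPSC replicate 2 and 1450 to 1519 without any 1 cjPGCLC library. Leaving out 1 library at a time gave 796 to 1837 higher and 469 to 646 lower genes, 810 to 1787 higher with ActA and 823 to 1846 higher without, and 32 to 73 genes lower than in somatic cells. A test against the minimum fold itself (glmTreat) called 345 higher and 174 lower genes, 37 gained and 12 lost among the list genes. With an interval within 1.5-fold 2897 genes were kept. Other size factors (1052 higher, 539 lower), DESeq2 (988, 579), no filter (1148, 654) and the 6 libraries alone (816, 453) stayed within 1.5 times. The difference between cjPGCLC conditions depended most on the processing: 576 higher and 439 lower without a filter, 327 and 287 with DESeq2, 41 to 521 and 29 to 458 with 1 library left out, and 0 and 0 in edgeR on the 6 libraries, an alternative chosen after seeing the data, where 1275 genes had an unadjusted p under 0.05. The cause was not tested. Deviations of same-numbered libraries correlated between the cjPGCLC conditions (0.33) but hardly between cjiPSCs and either of them (0.05 and 0.02), a hint from the data and not the design. A replicate block gave 1059 higher and 529 lower genes, and 235 higher and 205 lower with ActA than without, and moved no count over all genes by over 1.5 times. Signs turned with the cjiPSC library, among others for these genes: over the exclusions ZSCAN10 ranged from -2.21 to 2.25, TERT from -2.22 to 0.87, POU3F1 from -3.62 to 0.61, SPRY2 from -0.89 to 0.51, MKI67 from -0.53 to 0.81, CCND2 from -0.84 to 0.91 and HOXA2 from -0.96 to 2.69. Scalings moved the median of all genes by under 0.1. With 2 libraries per condition, 1 line and cjiPSC replicates that differ, the precision of every value is limited.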
